A study of Rattus norvegicus with 138 samples.

Results

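The 9 genes described here encode the pore-forming subunits of AMPA receptors (Gria1, Gria2, Gria3 and Gria4) and of kainate receptors (Grik1, Grik2, Grik3, Grik4 and Grik5). They were taken by gene symbol from count tables of 32883 genes, and all 9 were matched in the tables of all 3 regions. The tables hold RNA-seq of the nucleus of the solitary tract (NTS), the caudal ventrolateral medulla (CVLM) and the rostral ventrolateral medulla (RVLM) of 46 female rats, each of which gave 1 library per region. Of these rats, 18 were of the normotensive strain WKY/NHsd and 28 were spontaneously hypertensive rats of the strain SHR/NHsd. The WKY rats numbered 5 at an age of 8 wk, 4 at 10 wk and 3 each at 12, 16 and 24 wk, and the SHRs 5 each at 8 and 10 wk and 6 each at the later ages. No rat carried a transgene or was given an agent according to the labels. With 1 normotensive strain as control, blood pressure and other differences between the strains cannot be told apart.

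AMPA and kainate receptors are ion channels of 4 subunits that open when glutamate binds, and they carry fast excitatory transmission and adjust it before and after the synapse. In the brainstem, glutamate is the transmitter of baroreceptor afferents in the NTS, of the projection from the NTS to the CVLM, and of presympathetic neurons of the RVLM. Edited Gria2 makes an AMPA receptor almost impermeable to calcium, whereas Gria1, Gria3 and Gria4 alone form calcium-permeable channels. Grik1, Grik2 and Grik3 can form kainate receptors by themselves, and Grik4 and Grik5 are high-affinity subunits that reach the surface only together with one of the former.

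Values are normalized read counts (CPM, on library sizes scaled with TMM). Differences are log2 fold changes, with a standard error (SE) computed separately from the fitted edgeR model. Their p-values are from edgeR's quasi-likelihood test. A gene was called when its Benjamini-Hochberg adjusted p over all genes tested was under 0.05. Libraries held 5904570 to 17889400 counts, with a median of 10143000. In bulk tissue, fewer cells of a type and less RNA per cell cannot be told apart. Each column name ends in a number 1 or 2, whose meaning is not given in the sources used here, and which marks 96 and 42 libraries. The number 2 is carried by every library of 10 wk, by 3 of the 5 WKY libraries of 8 wk in a region, and by 1 SHR library each at 12 and 24 wk. A median Pearson r under 0.93 with the other libraries of their region set 5 libraries apart, and for Grik4, which was low in 4 of them, the values are also given without them.

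Levels of marker genes are given to describe the labelled regions, and they were not a test of the labels. Dbh, the enzyme that makes noradrenaline, had a median of 67.7 CPM in the NTS, 85.0 CPM in the CVLM and 9.55 CPM in the RVLM. Pnmt, which makes adrenaline, had 3.6, 41.8 and 19.6 CPM, and Chat, which makes acetylcholine and marks motor neurons in the medulla, had 61.1, 18.5 and 243 CPM in the same order. All 5 noradrenergic and adrenergic markers were lower in the RVLM than in the CVLM, and all 5 motor neuron markers were higher in the RVLM than in both other regions (adjusted p under 0.05 in edgeR). Of all genes tested, 54.5% were called between the CVLM and RVLM and 73.5% between the NTS and RVLM, in either direction. Pnmt was higher in the RVLM than in the NTS (log2 fold change of NTS against RVLM -2.20, adjusted p = 1.05e-15) and lower than in the CVLM (CVLM against RVLM 1.16, adjusted p = 3.94e-07). Slc17a7, a vesicular glutamate transporter, had 206 CPM in the CVLM against 5.61 CPM in the NTS and 5.75 CPM in the RVLM. Slc17a6, the other glutamatergic marker tested, was instead highest in the NTS. It had 313 CPM there, 280 CPM in the CVLM and 120 CPM in the RVLM. The part of this cell makeup in the differences between regions given here was not tested. The share of presympathetic neurons in the RVLM libraries was not tested either.

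Promoter windows from RefSeq (build GRCr8, 250 bases before to 50 bases after the annotated start, 5′ to 3′ on the strand of the gene) are shown for Grik1, the gene that most of the results below concern, and for Grik3, whose window had the highest GC content of the members with a window. Capitals mark CG dinucleotides. The Grik1 window lies on the minus strand at chr11:41056454-41056753 and the Grik3 window on the plus strand at chr5:143052192-143052491.
Grik1: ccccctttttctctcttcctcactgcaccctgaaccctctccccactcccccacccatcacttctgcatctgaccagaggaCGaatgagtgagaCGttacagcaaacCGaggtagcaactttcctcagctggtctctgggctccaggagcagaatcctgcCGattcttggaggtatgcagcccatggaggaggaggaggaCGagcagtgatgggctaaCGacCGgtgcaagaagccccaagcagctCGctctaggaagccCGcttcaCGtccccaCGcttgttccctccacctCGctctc
Grik3: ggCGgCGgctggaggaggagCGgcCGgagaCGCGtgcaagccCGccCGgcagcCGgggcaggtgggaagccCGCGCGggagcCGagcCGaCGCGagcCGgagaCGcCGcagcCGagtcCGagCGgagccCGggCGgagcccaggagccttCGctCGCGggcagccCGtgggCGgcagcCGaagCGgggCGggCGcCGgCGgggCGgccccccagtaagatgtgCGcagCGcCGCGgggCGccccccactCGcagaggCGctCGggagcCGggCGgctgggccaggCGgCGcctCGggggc
The Grik1 window holds 12 CG dinucleotides at a GC content of 58.7%, and the Grik3 window 49 at 82.3%, which is above that of 99.6% of 33469 promoter windows. The median over all windows was 51.7%. Among the other members with a window, the GC content was 60.3% for Gria4, 50.3% for Grik2, 44.0% for Grik4 and 69.0% for Grik5. On either strand, the letters TATAAA were found in 0 of the 6 windows (14.2% of all windows), CACGTG in 0 (6.42% of all), and GGGCGG in those of Grik3 and Grik5 (33.1% of all). TGACG was found in that of Grik2 (21.2% of all) and CCAAT in those of Gria4 and Grik2 (37.5% of all). A match is a description of letters in this window only.

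Of the 4 AMPA receptor genes, Gria1 and Gria2 were highest in the NTS, Gria3 was lowest there, and Gria4 was highest in the RVLM. Levels of a gene were compared between regions in a single fit over all regions in which each rat had its own term. Over all 14043 genes tested, 73.5% were called between the NTS and RVLM, 65.9% between the NTS and CVLM and 54.5% for the CVLM set against the RVLM, so that a call by itself was common. Of the 27 values of the 9 members, 20 were called. The filter on low counts kept Grik3 only through the NTS and CVLM, the regions where it was higher, and without it 18 of 24 were called. Sizes are therefore given for each member.

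Gria2 had 239 ± 46.6 CPM (SD, n = 46) in the NTS, 144 ± 27.0 CPM in the CVLM and 114 ± 22.3 CPM in the RVLM. Single libraries ran from 165 to 367 CPM (median 230 CPM) in the NTS, from 71.5 to 203 CPM (median 149 CPM) in the CVLM and from 69.3 to 164 CPM (median 109 CPM) in the RVLM. Gria2 in the NTS was above the highest RVLM library in every NTS library. It was 2.13-fold higher in the NTS than the RVLM (log2 fold change 1.09, SE 0.043, adjusted p = 1.05e-41 in edgeR) and 1.68-fold higher than in the CVLM (0.75, SE 0.042, adjusted p = 1.65e-29), in 46 of 46 rats each. Between the CVLM and RVLM the fold was 1.27, in 39 of 46 rats.

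Gria1, a subunit inserted into synapses with activity, had 23.1 ± 5.23 CPM (SD, n = 46) in the NTS, 13.9 ± 3.22 CPM in the CVLM and 12.4 ± 2.53 CPM in the RVLM. Its libraries ran from 14.5 to 34.5 CPM (median 22.0 CPM), from 7.82 to 22.9 CPM (median 13.7 CPM) and from 7.32 to 17.9 CPM (median 12.2 CPM), with overlap between the regions. Gria1 was 1.88-fold higher in the NTS than the RVLM in 46 of 46 rats (log2 fold change 0.91, SE 0.055) and 1.69-fold higher than in the CVLM in 44 of 46 rats (0.76, SE 0.055). The CVLM and RVLM differed less, at a log2 fold change of 0.15 (SE 0.056, adjusted p = 0.0197 in edgeR) in 32 of 46 rats, and with the number 1 libraries alone this call was lost (0.10, adjusted p = 0.219).

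Gria3 ran the other way. It had 43.0 ± 7.20 CPM (SD, n = 46) in the NTS, 76.9 ± 13.3 CPM in the CVLM and 66.7 ± 10.7 CPM in the RVLM. The NTS libraries ran from 27.6 to 57.8 CPM (median 43.3 CPM), those of the CVLM from 44.1 to 109 CPM (median 79.1 CPM) and those of the RVLM from 47.4 to 93.6 CPM (median 68.3 CPM). In 0 of 46 rats was Gria3 higher in the NTS than in the CVLM (log2 fold change -0.84, SE 0.038, adjusted p = 1.84e-36 in edgeR), and in 1 of 46 rats was it higher in the NTS than the RVLM (-0.64, SE 0.038). The CVLM exceeded the RVLM by a log2 fold change of 0.20 (SE 0.038) in 38 of 46 rats.

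Gria4, a subunit with fast kinetics, had 215 ± 52.9 CPM (SD, n = 46) in the NTS, 210 ± 56.8 CPM in the CVLM and 245 ± 57.8 CPM in the RVLM. Its ranges overlapped widely, from 134 to 352 CPM (median 201 CPM), from 127 to 352 CPM (median 191 CPM) and from 170 to 409 CPM (median 225 CPM). The RVLM was higher within rats than the NTS (log2 fold change of NTS against RVLM -0.19, SE 0.037) in all but 8 of 46 rats, and higher than the CVLM (CVLM against RVLM -0.23, SE 0.037) in all but 5. The NTS and CVLM did not pass the test (0.04, SE 0.037, adjusted p = 0.374).

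**Figure D1:**
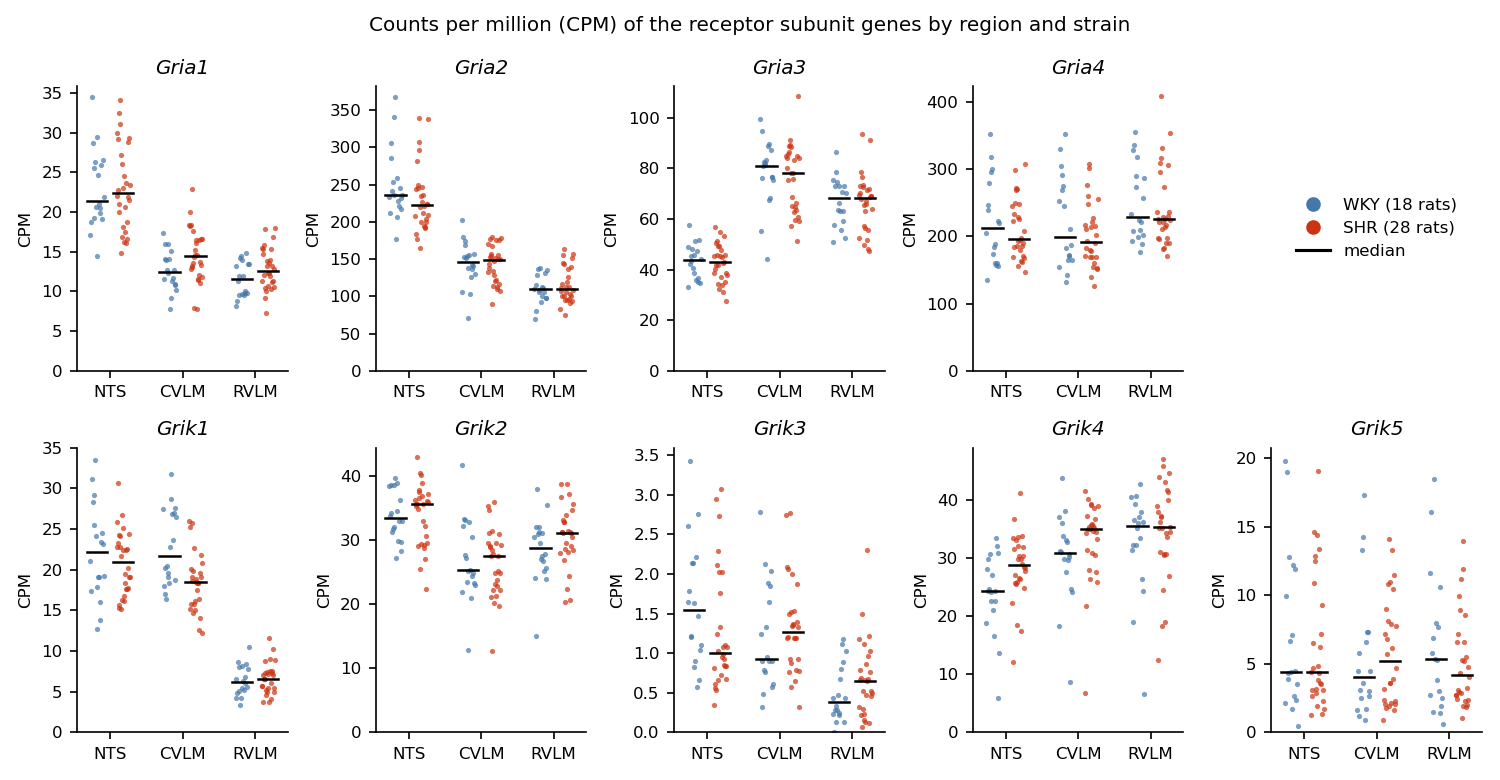
CPM of the 9 subunit genes (1 panel each, linear y axis from 0, scale set per panel) in the NTS, CVLM and RVLM, with 1 point per library coloured by strain. Grik1 has 6.56 CPM on average in the RVLM against 21.4 and 20.1 CPM in the NTS and CVLM, whereas Gria3 is lowest in the NTS.

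Among the kainate receptor genes, Grik1 showed the largest difference between regions of the 9 members. It had 21.4 ± 4.79 CPM (SD, n = 46) in the NTS, 20.1 ± 4.56 CPM in the CVLM and 6.56 ± 1.87 CPM in the RVLM. The libraries of the RVLM ran from 3.32 to 11.6 CPM (median 6.54 CPM), below all libraries of the NTS and of the CVLM. Those of the NTS had 12.7 to 33.5 CPM (median 21.4 CPM) and those of the CVLM 12.2 to 31.8 CPM (median 19.1 CPM). Grik1 was 3.32-fold higher in the NTS than the RVLM (log2 fold change 1.73, SE 0.072, adjusted p = 1.31e-39 in edgeR) and 3.16-fold higher in the CVLM (1.66, SE 0.072, adjusted p = 7.27e-38), in 46 of 46 rats each. Between the NTS and CVLM the log2 fold change was 0.07 (SE 0.068, adjusted p = 0.347), with the NTS higher in 24 of 46 rats.

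Grik3 had the fewest reads. It had 1.42 ± 0.785 CPM (SD, n = 46) in the NTS, 1.29 ± 0.627 CPM in the CVLM and 0.608 ± 0.449 CPM in the RVLM, where its counts ran from 0 to 24 and it did not pass the filter (largest rlog 3.15). It entered the fit of all libraries only through the NTS and CVLM, so its values against the RVLM are a description. They were log2 fold changes of 1.36 (SE 0.17, NTS against RVLM) and 1.15 (SE 0.17, CVLM against RVLM), with the RVLM the lower in all but 8 and all but 5 of 46 rats. The NTS and CVLM did not pass the test (0.21, SE 0.15, adjusted p = 0.232).

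Grik2, the most studied kainate subunit, had 33.9 ± 4.47 CPM (SD, n = 46) in the NTS, 26.6 ± 5.67 CPM in the CVLM and 29.8 ± 4.98 CPM in the RVLM. Its libraries ran from 22.4 to 42.9 CPM (median 34.7 CPM), from 12.6 to 41.7 CPM (median 26.3 CPM) and from 15.1 to 38.8 CPM (median 30.7 CPM) and overlapped. All 3 steps of this order passed the test, with log2 fold changes of 0.36 (SE 0.046, NTS against CVLM, 42 of 46 rats), 0.20 (SE 0.046, NTS against RVLM, 36 of 46 rats) and -0.17 (SE 0.046, CVLM against RVLM).

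Of the high-affinity subunits, Grik4 had 26.7 ± 6.67 CPM (SD, n = 46) in the NTS, 31.9 ± 7.41 CPM in the CVLM and 33.8 ± 8.60 CPM in the RVLM. The NTS was lower than the CVLM by a log2 fold change of -0.29 (SE 0.072, adjusted p = 3.06e-04 in edgeR) and lower than the RVLM by -0.38 (SE 0.072, adjusted p = 2.50e-06), and the CVLM and RVLM did not pass (-0.09, SE 0.072, adjusted p = 0.297). Grik5 had 6.72 ± 5.24 CPM in the NTS, 5.81 ± 4.23 CPM in the CVLM and 5.62 ± 4.14 CPM in the RVLM, with single libraries from 0.504 to 19.8 CPM. Its SD was close to its mean in each region, and 0 of its 3 region comparisons passed the test in edgeR, with 0 at an unadjusted p under 0.05.

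**Figure D2:**
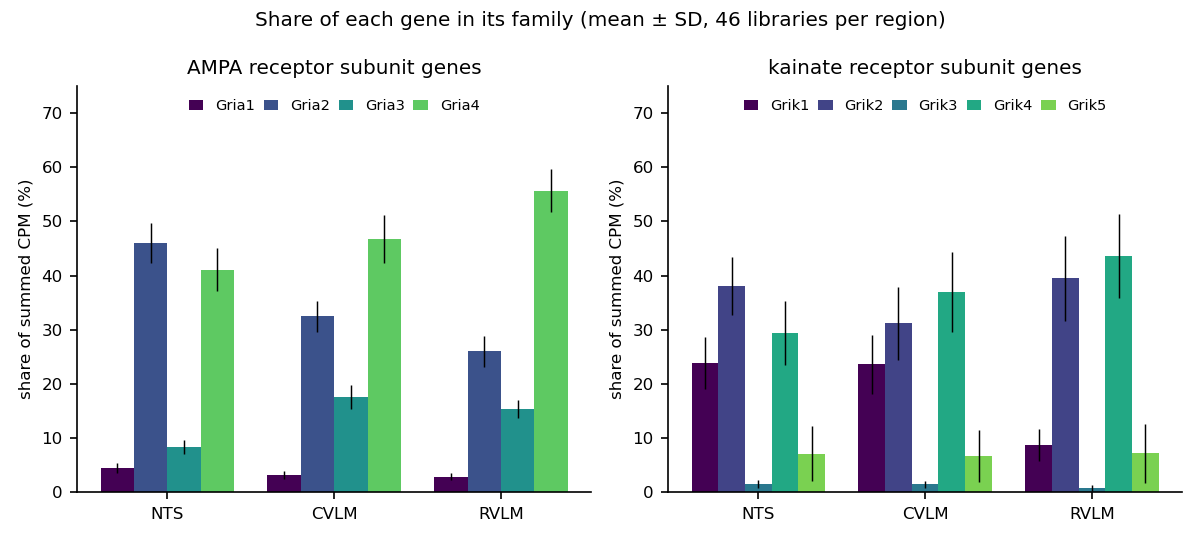
Share (%) of each gene in the summed CPM of its family, AMPA at left and kainate at right, by region, with bars for the mean and error bars for the SD over 46 libraries. The share of Gria2 falls from 46% in the NTS to 26.0% in the RVLM and that of Grik1 from 23.9% to 8.78%.

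The summed CPM of the AMPA receptor genes was 520 ± 97.7 (SD, n = 46) in the NTS, 444 ± 89.3 for the CVLM and 438 ± 83.4 for the RVLM, and that of the kainate receptor genes was 90.1 ± 12.9, 85.8 ± 9.14 and 76.5 ± 10.9. The region with the largest share differed between the genes of a family. Gria2 made up 46 ± 3.7% of the AMPA sum in the NTS, 32.5 ± 2.85% for the CVLM and 26.0 ± 2.85% for the RVLM, whereas Gria4 made up 41.1 ± 4.04%, 46.8 ± 4.41% and 55.7 ± 4.0%. Gria3 made up 8.40 ± 1.3%, 17.5 ± 2.22% and 15.4 ± 1.7%, and Gria1 4.48 ± 0.887%, 3.18 ± 0.71% and 2.89 ± 0.63%. Of the kainate sum, Grik1 made up 23.9 ± 4.74%, 23.6 ± 5.44% and 8.78 ± 3.01%, and Grik4 29.4 ± 5.87%, 36.9 ± 7.35% and 43.7 ± 7.77%. Grik2 made up 38.1 ± 5.32%, 31.2 ± 6.73% and 39.5 ± 7.84%. Transcript lengths were not used here, so a share is of reads and not of molecules, and shares can be compared between regions for a gene but not between genes.

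SHRs and WKY rats were compared in each region over the 5 ages and at each age. Over the ages, Grik1 was lower in the CVLM of SHRs, and it was the only 1 of 26 values of the members that was called. Over all genes tested, 11.2% were called for the NTS, 12.3% for the CVLM and 10.8% for the RVLM, so that the share of members called was below that of all genes. The value for Grik1 in the CVLM was a log2 fold change of -0.34 (SE 0.078, fold 0.793, adjusted p = 0.00156 in edgeR). In the NTS and RVLM, Grik1 had log2 fold changes of -0.03 (SE 0.085, adjusted p = 0.925) and 0.02 (SE 0.12, adjusted p = 0.959).

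The strains stood apart in Grik1 of the CVLM at 12 and 16 wk. At 8 wk, the 5 WKY rats had 16.4, 17.0, 18, 20.2 and 27.4 CPM and the 5 SHRs 15.1, 15.8, 20.1, 25.2 and 26.0 CPM of Grik1. At 10 wk, the 4 WKY rats had 18.4, 19.1, 19.6 and 20.5 CPM and the 5 SHRs 14.7, 18.7, 19.1, 19.9 and 25.7 CPM. At both ages the strains overlapped, with log2 fold changes of 0.04 (SE 0.16) and 0.02 (SE 0.17).

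At 12 wk, the 3 WKY rats had 22.8, 28.7 and 31.8 CPM of Grik1 in the CVLM and the 6 SHRs 15 to 22.7 CPM (median 17.3 CPM). Every SHR was below every WKY rat, the highest SHR by a small margin, and the groups of 5.28% of all genes did not overlap there. The log2 fold change of Grik1 was -0.65 (SE 0.18, adjusted p = 0.0296 in edgeR), and 2.62% of all genes were called at this age in the CVLM. Leaving out 1 rat ended this call for WKY rats 2 and 3 and SHRs 1, 3 and 4 of 12 wk and for SHR 2 of 10 wk, with the highest adjusted p, 0.240, without WKY rat 3. With the replicate number as a block, the log2 fold change was -0.58 and the call also ended (adjusted p = 0.0937).

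At 16 wk, the 3 WKY rats had 23.7, 26.8 and 26.9 CPM of Grik1 and the 6 SHRs 12.6 to 18.4 CPM (median 17.9 CPM), again without overlap, as for 5.79% of all genes. Grik1 had a log2 fold change of -0.61 (SE 0.18) and did not pass the test (adjusted p = 0.0543 in edgeR, where 2.27% of all genes were called). At 24 wk, the 3 WKY rats had 18.7, 26.5 and 27.6 CPM of Grik1 and the 6 SHRs 12.2 to 21.7 CPM (median 19.3 CPM), which overlapped (-0.47, SE 0.18, adjusted p = 0.0969, where 7.13% of all genes were called). The mean of Grik1 in WKY rats was thus 19.8 and 19.4 CPM at 8 and 10 wk and 27.8, 25.8 and 24.3 CPM at 12, 16 and 24 wk, and that in SHRs 20.4, 19.6, 17.9, 16.9 and 17.9 CPM. The test of whether the strain difference of Grik1 varied with age did not pass (unadjusted p = 0.00818, adjusted p = 0.303, F test in edgeR, where 0.0224% of all genes were called). All 10 wk libraries and those of 3 of 5 WKY rats of 8 wk carry the number 2 in their names, so that for WKY rats the later ages and the number 1 largely coincide. With the number 1 libraries alone, which leaves no rat of 10 wk, the log2 fold change of Grik1 over the remaining ages was -0.48 (adjusted p = 0.00138), and with the number as a term the call over the ages was kept.

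**Figure D3:**
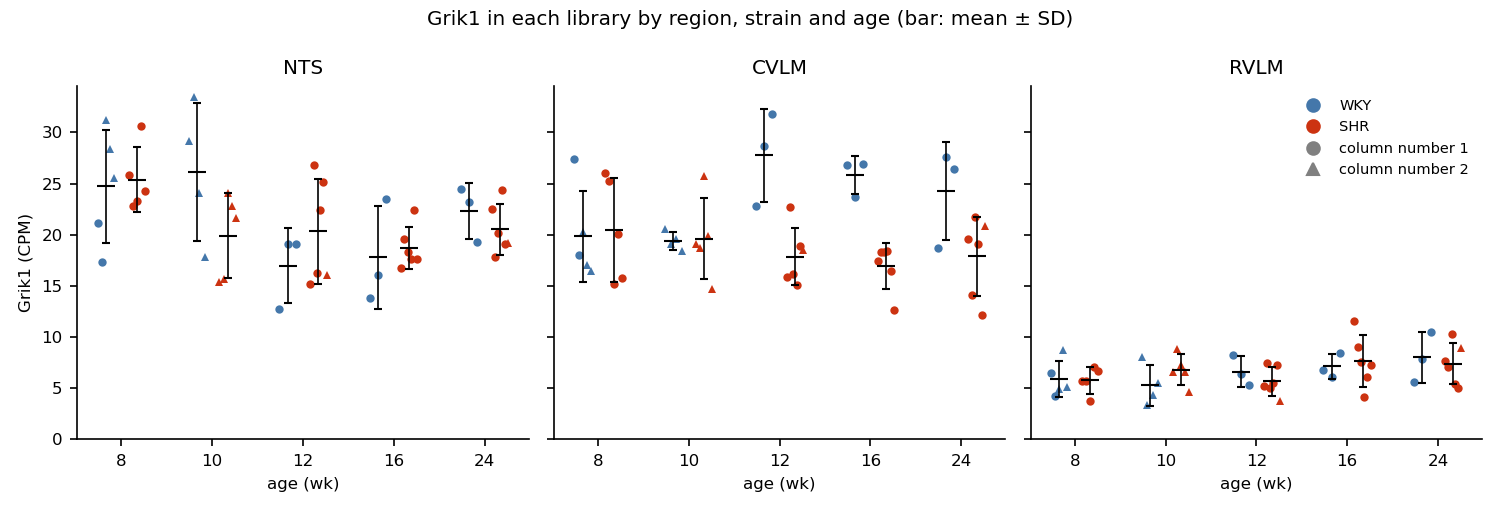
Grik1 (CPM, linear y axis) in each library against age (wk) in the NTS, CVLM and RVLM, coloured by strain, with circles for column number 1 and triangles for number 2 and black bars for mean ± SD of a group (3 to 6 rats). In the CVLM at 12 and 16 wk, the SHRs sit below all WKY rats.

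Grik1 in the NTS had group means of 17.0 to 26.2 CPM in WKY rats and 18.7 to 25.3 CPM in SHRs, and in the RVLM of 5.27 to 7.99 CPM and 5.66 to 7.60 CPM. The strain difference of Grik1 at an age ran from -0.35 to 0.27 (log2) in the NTS and from -0.21 to 0.36 in the RVLM, with no call. A test of whether the strain difference differed between regions did not pass for Grik1. The difference of the CVLM against the RVLM was -0.37 (SE 0.14, adjusted p = 0.447 in edgeR) and that of the NTS against the CVLM 0.21 (SE 0.14, adjusted p = 0.945). Over the 9 members and 3 pairs of regions, 0 of 27 such values passed in edgeR and 3 had an unadjusted p under 0.05, while 1.93%, 0.328% and 0.385% of all genes were called for NTS against RVLM, NTS against CVLM, and CVLM against RVLM. A strain difference of Grik1 that is particular to the CVLM was therefore not shown. With the number 1 libraries alone, 1 of the 27 passed, which was Grik1 between the NTS and CVLM.

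Grik1 had 111 to 309 counts per library in the CVLM. Among cell type markers in the CVLM over the ages, 0 of 10 neuron markers, 0 of 4 inhibitory neuron markers, 0 of 2 glutamatergic markers tested and 0 of 8 astrocyte markers were called between the strains. Of 8 oligodendrocyte markers, 1 was higher and 4 were lower in SHRs (summed level 39851 to 67228 CPM in SHRs and 40238 to 75830 CPM in WKY rats), and of 6 microglia markers 2 were lower. Among cerebellar granule neuron markers Etv1 was lower (-0.32) and Cbln3 higher (0.79), and among Purkinje neuron markers Car8 was higher (0.27). Over all genes tested in the CVLM, 12.3% were called over the ages. At single ages, Gad1 was lower in SHRs at 8 wk (-0.70, adjusted p = 8.52e-04 in edgeR), where 7.64% of all genes were called. Stmn2 was lower at 24 wk (-0.33, adjusted p = 0.0283), where 7.13% were called. Whether any of these marker differences bears on Grik1 was not tested.

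**Figure D4:**
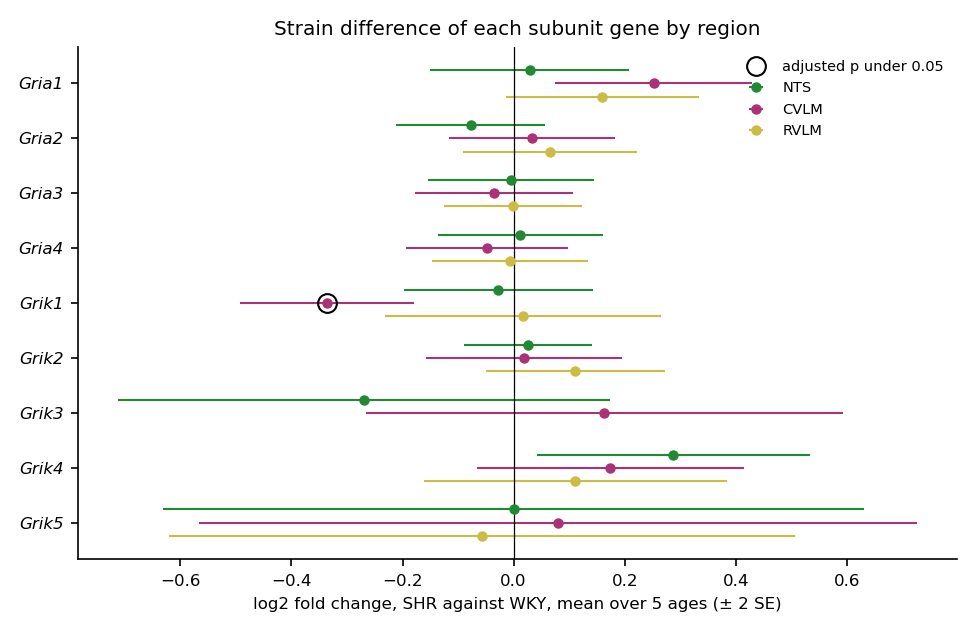
Log2 fold change of SHRs against WKY rats as the mean over 5 ages (x axis, bars ± 2 SE) for each subunit gene (y axis) in the NTS, CVLM and RVLM, with an open ring where the adjusted p was under 0.05. The single ring is at Grik1 in the CVLM, at -0.34. Grik3 in the RVLM was not tested.

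Gria1 was the nearest to a call among the AMPA receptor genes. Over the ages in the CVLM, WKY rats had 7.85 to 17.4 CPM (median 12.5 CPM, n = 18) and SHRs 7.82 to 22.9 CPM (median 14.4 CPM, n = 28) of Gria1, ranges that overlapped. The log2 fold change of Gria1 was 0.25 (SE 0.089, adjusted p = 0.0562 in edgeR) in the CVLM, 0.16 (SE 0.087, adjusted p = 0.297) in the RVLM and 0.03 (SE 0.090, adjusted p = 0.927) in the NTS. In the RVLM at 8 wk, the WKY rats had 8.16, 8.79, 9.62, 11.3 and 13.2 CPM and the SHRs 11.3, 14.8, 15.3, 15.5 and 15.9 CPM of Gria1, with 1 SHR within the range of the WKY rats (log2 fold change 0.50, SE 0.18, adjusted p = 0.0648, where 9.78% of all genes were called). In the CVLM at 24 wk, Gria1 had 10.2, 10.9 and 10.9 CPM in WKY rats and 11.1 to 16.6 CPM in SHRs, without overlap, as for 11.7% of all genes, but without a call (0.34, adjusted p = 0.339).

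For Gria2, the mean difference over the ages was -0.08 (SE 0.067) in the NTS, 0.03 (SE 0.075) in the CVLM and 0.07 (SE 0.078) in the RVLM. The interval of ± 2 SE for Gria2 reached from -0.21 to 0.06 in the NTS, from -0.12 to 0.18 in the CVLM and from -0.09 to 0.22 in the RVLM. Gria3 had 0.00 (SE 0.075), -0.03 (SE 0.071) and 0.00 (SE 0.062) in the same order. Gria4 had 0.01 (SE 0.074), -0.05 (SE 0.073) and -0.01 (SE 0.070), and Grik2 had 0.03 (SE 0.058), 0.02 (SE 0.088) and 0.11 (SE 0.081). None of these 4 genes passed the test in any region over the ages.

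Gria4 tracked the number in the column names. In the NTS, the 32 libraries of number 1 had 134 to 245 CPM (median 184 CPM) and the 14 of number 2 had 239 to 352 CPM (median 275 CPM) of Gria4. With the number as a term beside strain and age, Gria4 was higher in number 2 libraries by log2 0.60 (SE 0.11) in the NTS, 0.49 (SE 0.12) in the CVLM and 0.48 (SE 0.11) in the RVLM, each with an adjusted p under 0.05 in edgeR, and Gria2 by 0.43 (SE 0.11) in the NTS. The other members did not pass. Over all genes tested, 3526 of 13793 differed with the number in the NTS, 2902 of 13408 in the CVLM and 2204 of 13411 in the RVLM. Such a difference was therefore common and not particular to these members. In the CVLM at 8 wk, where 3 of 5 WKY rats and 0 of 5 SHRs carry the number 2, Gria4 had 155, 253, 269, 304 and 329 CPM in WKY rats and 170, 183, 193, 210 and 217 CPM in SHRs (log2 fold change -0.43, SE 0.15, adjusted p = 0.0747, where 7.64% of all genes were called). With the number as a term, this value was not called either.

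At single ages, 1 of 130 values of the members was called in edgeR, that of Grik1 above, and 10 had an unadjusted p under 0.05. In the order of the ages, 5.79%, 4.44%, 3.10%, 1.73% and 2.46% of all genes were called in the NTS, 3.18% at 10 wk in the CVLM, and 2.30%, 1.70%, 1.65% and 2.24% from 10 wk in the RVLM. Over all genes, regions and ages, the groups did not overlap in 6.19% of values. Those of the members did not overlap in 5 of the 130 values, a share below that, which were Grik1 in the CVLM at 12 and 16 wk, Gria1 in the CVLM at 24 wk, and Grik4 in the CVLM at 16 and 24 wk.

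At 24 wk, the values of Grik4 leaned to the SHRs in each region without passing the test. In the NTS, the WKY rats had 5.85, 13.7 and 31.0 CPM and the SHRs 24.9 to 31.9 CPM of Grik4. In the CVLM these were 8.62, 24.1 and 24.7 CPM against 25.9 to 39.0 CPM, and in the RVLM 6.54, 24.3 and 36.3 CPM against 26.9 to 44.6 CPM. In each region the lowest WKY library was far below all SHR libraries. It was that of rat 1 in the NTS and CVLM and of rat 3 in the RVLM. The 3 regions come from the same rats, so their values are not independent. The log2 fold changes of Grik4 were 0.77 (SE 0.29, adjusted p = 0.206), 0.71 (SE 0.28, adjusted p = 0.130) and 0.72 (SE 0.32, adjusted p = 0.297) in edgeR. Over the ages, Grik4 had 0.29 (SE 0.12, adjusted p = 0.150) in the NTS, 0.17 (SE 0.12) in the CVLM and 0.11 (SE 0.14) in the RVLM.

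Low Grik4 went with libraries that were unlike the others of their region. Grik4 was under 15 CPM in 7 libraries of all regions, and the median Pearson r of these with the other libraries of their region was 0.914 to 0.940, against a median of 0.954 over all libraries. Of the 5 libraries under an r of 0.93, 4 were among these. Those 5 libraries include 1 WKY library of 24 wk in the NTS (5.85 CPM) and 1 in the RVLM (6.54 CPM). None of 24 wk in the CVLM is among them. These NTS and RVLM libraries were each the lowest in Grik4 of their WKY group of 3, so leaving them out had to lessen the difference. Without the 5 libraries, the log2 fold change of Grik4 at 24 wk was 0.37 (adjusted p = 0.844 in edgeR) in the NTS and 0.27 (adjusted p = 0.717) in the RVLM. In the CVLM it was 0.72 (adjusted p = 0.0268) and thus called. In that fit 963 genes were called in the CVLM at 24 wk, against 956 of 13408 (7.13%) with all libraries. The WKY library of 8.62 CPM was still among the 3 of its group. The part of these libraries' state in the level of Grik4 was not tested further.

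**Figure D5:**
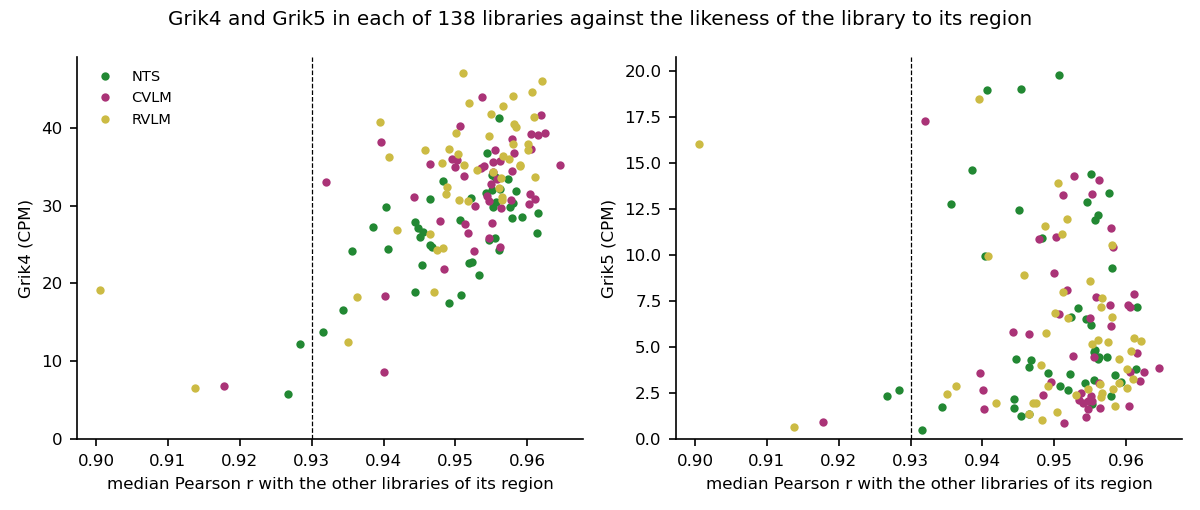
CPM of Grik4 (left) and Grik5 (right) in every library of the 3 regions against the library's median Pearson r with the other libraries of its region, coloured by region, with a dashed line at 0.93. Of the 5 libraries left of the line, 4 have Grik4 under 15 CPM.

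Grik5 varied widely within groups. In the NTS at 8 wk, the WKY rats had 2.16, 4.30, 9.93, 19.0 and 19.8 CPM and the SHRs 1.26, 2.68, 3.07, 4.44 and 6.55 CPM of Grik5, which overlapped (log2 fold change -1.66, SE 0.65, adjusted p = 0.115). Over the ages, Grik5 had 0.00 (SE 0.32) in the NTS, 0.08 (SE 0.32) in the CVLM and -0.06 (SE 0.28) in the RVLM, and the interval of ± 2 SE reached from -0.63 to 0.63 in the NTS. Grik3 had -0.27 (SE 0.22) in the NTS and 0.16 (SE 0.21) in the CVLM over the ages, at 3 to 46 counts per library.

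Within a strain, 24 wk was compared with 8 wk. In edgeR 0 of 52 values of the members were called and 7 had an unadjusted p under 0.05. DESeq2 called 2, Grik5 in the NTS and in the RVLM of WKY rats. There DESeq2 called 1115 of 13793 genes in the NTS and 553 of 13411 in the RVLM, where edgeR called 64 and 24. Over all genes in edgeR, 0.232%, 0.649% and 0.358% were called in the NTS, CVLM and RVLM of SHRs. In those of WKY rats edgeR called 0.464%, 13.7% and 0.179%. The lowest adjusted p was that of Grik5 in the NTS of WKY rats, which had 0.504, 2.36 and 3.52 CPM at 24 wk against the values at 8 wk above (log2 fold change -2.45, SE 0.80, adjusted p = 0.0881 in edgeR). The WKY rats of 8 wk with the number 2 take part in this comparison, and none of 24 wk do. The test of a strain difference that varied with age passed for 0 of 26 values in edgeR and in DESeq2 (1 at an unadjusted p under 0.05, Grik1 in the CVLM), with 0.0145%, 0.0224% and 0.00746% of all genes called in the NTS, CVLM and RVLM.

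Genes that act with these receptors were taken from lists of their known partners. Of 13 AMPA receptor auxiliary subunits, which set gating and trafficking, 11 were in the tables and those tested numbered 8 for the NTS, 7 for the CVLM and 6 for the RVLM. Over the ages, 1 was higher and 2 were lower in SHRs in the NTS, 1 was lower in the CVLM, and 1 was higher and 1 lower in the RVLM. Of all genes tested, 11.2%, 12.3% and 10.8% were called in the same order. Cacng5, a transmembrane AMPA receptor regulatory protein, was lower in all 3 regions, with log2 fold changes of -1.29 (adjusted p = 1.73e-14 in edgeR), -0.70 (adjusted p = 2.22e-04) and -0.69 (adjusted p = 0.0132) in the NTS, CVLM and RVLM. In the NTS it was called at all 5 ages, at -1.01 to -1.47. In the NTS, Cacng3 was also lower (-0.41) and Shisa8 higher (1.18, adjusted p = 0.0295), and Shisa7 was higher in the RVLM (0.58, adjusted p = 0.0469). The median over the list was -0.06, 0.06 and -0.06, against 0.01, 0.00 and 0.01 over all genes.

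Of 13 assembly and scaffold genes, all tested, SHRs had 1 higher in the NTS, 1 for the CVLM and 2 for the RVLM, and 0 lower. These counts stand beside 11.2%, 12.3% and 10.8% of all genes called in the same order. Nsf, the ATPase that binds the Gria2 tail, was higher in all 3 regions by 0.21, 0.30 and 0.35 (log2), and Grip1, a scaffold of Gria2 and Gria3, was higher in the RVLM by 0.41. Neither of the kainate auxiliary subunits Neto1 and Neto2 was called in any region in edgeR. Of 3 RNA editing enzymes, Adarb1, which edits the Gria2 transcript, was higher by 0.37 in the NTS and 0.30 in the CVLM.

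Between regions, 4 of the 6 auxiliary subunits that passed the filter in both were higher in the NTS than the RVLM and 1 was lower, and of 7 that passed in the NTS and CVLM, 4 were higher and 2 lower in the NTS. Shisa6 did not pass in the RVLM, nor Shisa8 in either other region, and they are not counted there. Cacng5 (log2 fold change 2.78) was among those higher in the NTS than the RVLM, and Cacng2 was lower (-1.0). Neto2, which binds kainate receptors, was higher in the NTS (1.22) and CVLM (1.44) than in the RVLM, as Grik1 was. Neto1, the other kainate auxiliary subunit, was lower in the NTS (-0.40) and higher in the CVLM (0.18) than in the RVLM. Of the 13 scaffold genes, 7 were higher and 4 lower in the NTS than in the RVLM, and 5 were higher and 5 lower than in the CVLM. Over all genes tested, 73.5% were called between the NTS and RVLM and 65.9% between the NTS and CVLM, so such counts were common. Dlg4, the postsynaptic scaffold PSD-95, was lower in the NTS (-0.76) and the CVLM (-0.80) than in the RVLM. Adarb1 was lower in the NTS than in the RVLM (-0.62) and the CVLM (-1.04).

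The pattern of each member over the 30 group means of region, strain and age was set against that of every gene kept in all regions, as a description. Grik3, which did not pass the filter in the RVLM, was left out here. These points share animals, libraries and depth. Gria1 was most like Sorbs2 (Pearson r 0.96), Cntn4 (0.95) and Slc7a11 (0.93), Gria2 most like Chl1, Smarca1 and Stag1 (0.97 each), Gria3 most like Sgpp2 (0.97), Nkiras1 (0.96) and Pak1 (0.95), and Gria4 most like Eif1ax (0.97), Lypla1 (0.97) and Ythdf3 (0.96). Grik1 was most like Nppc (0.97), Hoxb5 (0.96) and Fam241b (0.96), and Grik2 most like Zfp518a (0.90), Sema3d (0.88) and Cntn1 (0.87). Grik4 was most like Med9 (0.93), Zdhhc3 (0.92) and Ppp2r5b (0.92), and Grik5 most like Camk2n2, Nr2f6 and Jund (0.93 each). Among the members themselves, Gria1 and Gria2 had an r of 0.93, Gria1 and Gria3 of -0.72 and Gria2 and Gria3 of -0.67.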

How the data were processed

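The authors isolated total RNA from bilateral punches of frozen brainstem sections (1 sample per rat and region) and, according to their methods, mapped the reads to the rat genome rn6 with STAR inside RSEM. The authors deposited for each region a table of the expected counts that RSEM estimated for each gene, not normalized, in which 5.02% of NTS, 4.95% of CVLM and 4.88% of RVLM values have a fractional part. Their methods also name a batch adjustment with ComBat_seq, and whether it is in these tables is not stated. Estimated counts of genes with close paralogs, as these families have, depend on how reads shared between them were split.

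Counts were rounded and analysed with edgeR 4.0.16 under R 4.3.3, with DESeq2 1.42.0 for an alternative and for rlog. Genes were kept in a region where the largest rlog value reached 3.5 (13793 in the NTS, 13408 in the CVLM, 13411 in the RVLM). Within a region, 1 fit of 46 libraries with 10 groups of strain and age (TMM, glmQLFit, glmQLFTest) gave the strain and age contrasts, and 1 fit over the 3 regions with a term for each rat gave the region contrasts. Benjamini-Hochberg adjustment was over all genes of a contrast. Groups came from sample titles and labels. The titles of 2 CVLM samples say 8 wk where their age label says 10 wk, and they were placed at 8 wk. Total counts ran from 5904570 to 17889400 per library. Repeated libraries were looked for in 270 pairs within groups, where the lowest chi-square per gene was 5.07. The fits were tested on simulated counts with known changes. All 9 members are named, of other lists at most the 3 genes with the lowest p in a comparison, and for likeness the 3 genes with the highest r. The members and lists were chosen with earlier results of these data known. Alternatives were DESeq2, RLE size factors, other filters, each age alone, a replicate block, the name number as a term, leaving out each rat and the conflicting samples, and, added after the data were seen, number 1 libraries alone and leaving out the 5 libraries under an r of 0.93. Rats are separate animals, and the labels do not say whether libraries were prepared together.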

Additional observations from a re-analysis of the deposited data

Results flagged for a closer look

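Of 189 groups of 4 or more rats, 18 held a library whose gap to its nearest neighbour, over the range of the group, exceeded Dixon's limit, where chance gives about 1 in 20. All 18 were groups of SHRs, which also make up most of the groups of this size. That value was the lowest in 7 groups and the highest in 11.

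Gria1 was 12.9 CPM in 1 SHR of 8 wk in the CVLM against 18.3 to 20.02 CPM in the others, 7.86 CPM in 1 SHR of 12 wk in the CVLM against 14.3 to 16.5 CPM, and 11.3 CPM in 1 SHR of 8 wk in the RVLM against 14.8 to 15.9 CPM. Gria2 was 338 CPM in 1 SHR of 24 wk in the NTS against 200 to 224 CPM; this library carries the name number 2 and the others of its group the number 1. Gria3 was 83.5 CPM in 1 SHR of 16 wk in the CVLM against 59.7 to 66.4 CPM. In the RVLM, Gria3 was 52.3 CPM at 8 wk against 67.8 to 73.2 CPM, 93.6 CPM at 10 wk against 72.7 to 78.7 CPM, and 91.3 CPM at 24 wk against 63.8 to 72.0 CPM.

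Grik1 was 12.6 CPM in 1 SHR of 16 wk in the CVLM against 16.4 to 18.4 CPM. Grik2 was 42.9 CPM in 1 SHR of 8 wk in the NTS against 35.3 to 36.3 CPM. Grik3 in the NTS was 2.95 CPM at 8 wk against 0.341 to 0.812 CPM and 2.03 CPM at 16 wk against 0.731 to 1.08 CPM. Grik4 was 26.4 CPM at 12 wk in the CVLM against 35.0 to 39.4 CPM, 33.1 CPM at 10 wk in the NTS against 25.6 to 27.2 CPM, and 12.4 CPM at 8 wk in the RVLM against 35.1 to 44.1 CPM. Grik5 was 13.4 CPM at 16 wk in the NTS against 3.61 to 7.16 CPM, 9.30 CPM at 24 wk in the NTS against 1.36 to 3.51 CPM, and 6.61 CPM at 8 wk in the RVLM against 2.46 to 3.06 CPM.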

How the results depend on the processing

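Members called between strains at an age numbered 1 in the reported fit, 2 with DESeq2, 0 with no filter, 0 with number 1 libraries alone, 3 without the 5 libraries that stand apart, 2 without the 2 samples of conflicting age, and 0 to 5 with 1 rat left out. The lowest were without WKY rats 2 and 3 or SHRs 1, 3 and 4 of 12 wk, and the highest, 5, without WKY rat 1 of 8 wk, with 4 without SHR 1 of 8 wk and 3 without SHR 5 of 8 wk. The call of Grik1 in the CVLM at 12 wk had log2 fold changes of -0.65 to -0.58 and adjusted p of 0.0260 to 0.184 over the other alternatives, and at 16 wk adjusted p of 0.0258 to 0.0930. Over the ages, members called numbered 2 with DESeq2 and 2 with the name number as a term, which added Gria1 in the CVLM, and 1 to 2 with 1 rat left out. The call of Grik1 in the CVLM over the ages was kept in each of these fits (-0.48 to -0.31, adjusted p of 4.87e-04 to 0.00528). Between 24 and 8 wk, 2 members were called with DESeq2, 1 without the libraries that stand apart (Grik4 in the CVLM of WKY rats), and 0 to 1 with 1 rat left out. For WKY rats in the CVLM, 1970 genes were called without the libraries that stand apart, against 1831 of 13408 (13.7%) with them. The strain difference varied with age in 0 members under every alternative run, and with region in 1 member with number 1 libraries alone. Of values between regions, 19 to 20 of 27 were called throughout.

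The replicate numbers were not taken as pairing the rats, since the correlation of deviations was over 0.1 in 32 of 54 pairs (median 0.139), and in every pair of a group only for the CVLM at 10 and 12 wk and the NTS at 12 and 24 wk. With a replicate block, 1 member was called at an age, Grik4 in the CVLM at 24 wk in place of Grik1 at 12 wk (-0.58, adjusted p = 0.0937), and 1 over the ages. Groups of 3 WKY rats and the low counts of Grik3 and Grik5 limit what could be detected.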
